A study of Mus musculus with 16 samples.

Results

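The subunits of the oxidative phosphorylation complexes were followed in B220+ B cells from the spleen of 3'RR-deficient and wild type mice; the 3'RR is the 3' regulatory region of the immunoglobulin heavy chain locus. Members were chosen by gene name on the array (names that begin with Nduf, Uqcr, Cox4, Cox5, Cox6, Cox7, Cox8 or Atp5, together with Sdha, Sdhb, Sdhc, Sdhd and Cyc1). The name rule uses no measured value, but it was chosen with earlier results of these data known. The array carried 91 such names, and 88 of them had a probe well above background on at least 4 of the 16 arrays, out of 22744 genes measured in all. Of the 88, 80 encode subunits: 36 of complex I, 4 of complex II, 9 of complex III, 16 of complex IV and 15 of complex V. The other members are 4 assembly factors of complex I (Ndufaf1 to Ndufaf4) and 4 other proteins caught by the name stem (Cox7a2l, Cox4nb, Atp5s and Atp5sl). Cox7b2, Cox8b and Cox8c, isoforms known from other tissues, were not well above background on enough arrays. Of the 80 subunits, 79 were well above background on all 16 arrays, Ndufa4l2 being the exception.

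Each sample was total RNA hybridised to a 1-colour array, with 4 arrays of each genotype on each of 2 slides. In the deficient mice the knockout lies on the IgH allele of 129, the background and the strain entry being BALBC, while the strain entry of the wild type mice is 129, so that genotype and strain entry cannot be told apart. The labels give no age, stimulation or other treatment for any group. The design text speaks of 4 mice of each genotype against 8 arrays of each, and nothing states that arrays stand for separate mice, and so a p-value here reflects only how far these samples spread, possibly for technical reasons. B cells were purified with anti-B220 beads, and all 8 B cell marker genes were well above background on every array.

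Complexes I to IV form the respiratory chain of the inner mitochondrial membrane: complex I takes electrons from NADH, complex II from succinate, complex III passes them on to cytochrome c, and complex IV hands them to oxygen. Complex V, the ATP synthase, uses the proton gradient built by complexes I, III and IV to make ATP. Most subunits are encoded in the nucleus, while a small set is encoded in mitochondrial DNA, and B cells that leave the resting state are known to raise mitochondrial mass and respiration. Levels are log2 signals relative to the 75th percentile of each array, a level is never compared between genes because probes differ in brightness, and differences are deficient minus wild type.

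The slides differed throughout. Correlations between arrays were 0.981 to 0.997 within a group, 0.971 to 0.987 between genotypes on a slide and 0.89 to 0.916 between slides. Genes of dividing cells were higher on slide 2, with a median difference of 3.51 and 7 of 7 past the test, and their summed level, in multiples of the 75th percentile, was 23.7 to 78.3 on the arrays of slide 1 against 279 to 319 on those of slide 2. Macrophage and myeloid genes were lower there (median -7.08, 11 of 11), with summed levels of 85.1 to 273 on slide 1 and 14.9 to 24 on slide 2, where C1qa, C1qc, S100a8 and S100a9 stayed at background in both genotypes. Of 9 T cell genes 7 were lower and 1 higher, while their summed level, 37.8 to 44.8 on slide 1, was 68.1 to 116 on slide 2. B cell genes (6 of 8, median -0.79) and erythroid genes (7 of 8, median -6.68) were lower as well. The summed level of the erythroid genes on slide 1 was 195 to 562 in deficient and 164 to 885 in wild type cells. On slide 2 it was 8.86 to 42.1 in deficient and 0.514 to 0.676 in wild type cells. The part of these genes in the differences below was not tested. Within bulk samples, fewer cells of a type and less RNA per cell cannot be told apart. The number from 1 to 8 that ends each title, the place of the array on its slide, adds a further limit: wild type cells held places 1 to 4 and deficient cells places 5 to 8 of slide 1, and the reverse held on slide 2, so that within a slide genotype and place cannot be told apart. Below, arrays are named by their sample number, not by place.

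Promoter stretches of 4 subunits are shown first, 1 each from complexes I, II, IV and V, because these were, within each complex, the subunits with the largest called difference between the slides' genotype differences whose last 150 bases before the start hold a recognition sequence searched for. No called subunit of complex III met this rule. Uqcrb, Uqcrc2 and Uqcrq had no promoter sequence to search, and Uqcrfs1 was searched and held no match. The sequences are from RefSeq (GRCm38.p6), 5′ to 3′ on the gene's strand: Ndufs3 at chr2:90904722-90904871 (minus strand), Sdhb at chr4:140961121-140961270 (plus strand), Cox6b1 at chr7:30626115-30626264 (minus strand) and Atp5h at chr11:115419920-115420069 (minus strand). Capitals mark the match.
Ndufs3: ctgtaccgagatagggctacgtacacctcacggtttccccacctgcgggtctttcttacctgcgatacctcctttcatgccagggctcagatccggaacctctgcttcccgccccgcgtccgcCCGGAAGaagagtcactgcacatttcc
Sdhb: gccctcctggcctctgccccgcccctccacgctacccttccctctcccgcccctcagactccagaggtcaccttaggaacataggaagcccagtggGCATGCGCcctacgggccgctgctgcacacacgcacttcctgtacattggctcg
Cox6b1: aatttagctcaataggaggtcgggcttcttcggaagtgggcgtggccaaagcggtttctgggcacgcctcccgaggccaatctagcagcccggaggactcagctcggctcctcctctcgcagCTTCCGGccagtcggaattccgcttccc
Atp5h: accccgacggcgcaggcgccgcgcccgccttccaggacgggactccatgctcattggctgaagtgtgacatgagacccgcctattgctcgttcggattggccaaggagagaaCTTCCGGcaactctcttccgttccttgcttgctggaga
The match in Sdhb is that of NRF1 (GCGCATGC, here on the other strand), and those in Ndufs3, Cox6b1 and Atp5h are that of GABP (CCGGAAG or its reverse), 2 factors known to bind promoters of respiratory chain genes. Both strands of the window from 250 bases before to 50 after each start were searched for these and for YY1 (AAGATGGC). All 91 names matched RefSeq, 74 had a window, and 67 of those were subunits on the array. The 67 include Cox7b2 and Cox8b of complex IV, which were not measured. NRF1 letters stood in 10 of the 67 (14.9%, against 3.05% of 27025 genes), GABP letters in 16 (23.9%, against 9.93%) and YY1 letters in 10 (14.9%, against 3.19%). At least 1 of the 3 stood in 30 (44.8%, against 14.9%). By complex that was 14 of 32 in complex I, 2 of 3 in complex II, 3 of 5 in complex III, 3 of 13 in complex IV and 8 of 14 in complex V. YY1 letters stood in 7 windows of complex I and 3 of complex V, and in none of complexes II, III and IV. These are matches of letters, not binding sites.

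The first comparison asked whether the subunits differed between genotypes over both slides, with the slides weighted equally. Few were called: the median difference of the 80 subunits was -0.05, against -0.03 for all genes. None was called higher and 3 were called lower by limma at an adjusted p under 0.05 (11 lower and 1 higher at an unadjusted p under 0.05), while 7.64% of all genes were called higher and 9.95% lower. Those 3 were Cox6b2, Sdhb and Uqcrb. The median was -0.06 in complex I, -0.12 in complex II, -0.04 in complex III, -0.08 in complex IV and -0.04 in complex V. With array weights 8 subunits were called lower, with quantile normalization 6, with median scaling 1 and with slide as a random block none.

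The small mean difference covered opposite differences on the slides. On slide 1, 78 of the 80 subunits had a lower mean in deficient cells, the median difference was -0.23 (0.853 of the wild type level), and 29 fell by limma's test while none rose. In the same comparison 15.8% of all genes were called lower and 9.19% higher, with a median of -0.08. Among the 4722 genes with a mean level of at least 3, to which 74 of the 80 subunits belong, 26.8% were called lower, with a median of -0.15. The count of 29 was 16 with median scaling and in the authors' value table, 13 with the arrays centred on those bright genes and 3 with slide 1 fitted alone. The median was -0.15 with quantile normalization, -0.14 in the value table and -0.12 with that centring, an alternative chosen after seeing the data. On slide 2, 72 of the 80 had a higher mean in deficient cells, with a median of 0.13 against 0.02 for all genes; 3 rose (Sdhd, Atp5b and Atp5c1) and 1 fell (Cox6b2), where 4.33% of all genes were called higher and 4.27% lower. Of the bright genes 6.37% were called higher, with a median of 0.09. The slide 2 median of the subunits was 0.03 with quantile normalization, 0.01 in the value table and 0.04 with centring on bright genes, and under each of these 0 subunits were called higher. Both directions together, lower on slide 1 and higher on slide 2, were met by 72 of 80 subunits (90%) and by 31% of all genes. Of the 4722 bright genes, 3567 had a lower mean on slide 1 and 3544 a higher mean on slide 2. How many bright genes met both, or had groups that did not overlap, was not counted. Groups did not overlap on slide 1 for 21 subunits with deficient cells lower (26.2%, against 15.1% of genes) and for 0 with deficient cells higher (7.37% of genes); on slide 2 that held for 15 with deficient cells higher (18.8%, against 13.9%) and 2 with deficient cells lower (2.5%, against 9.89%).

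**Figure D1:**
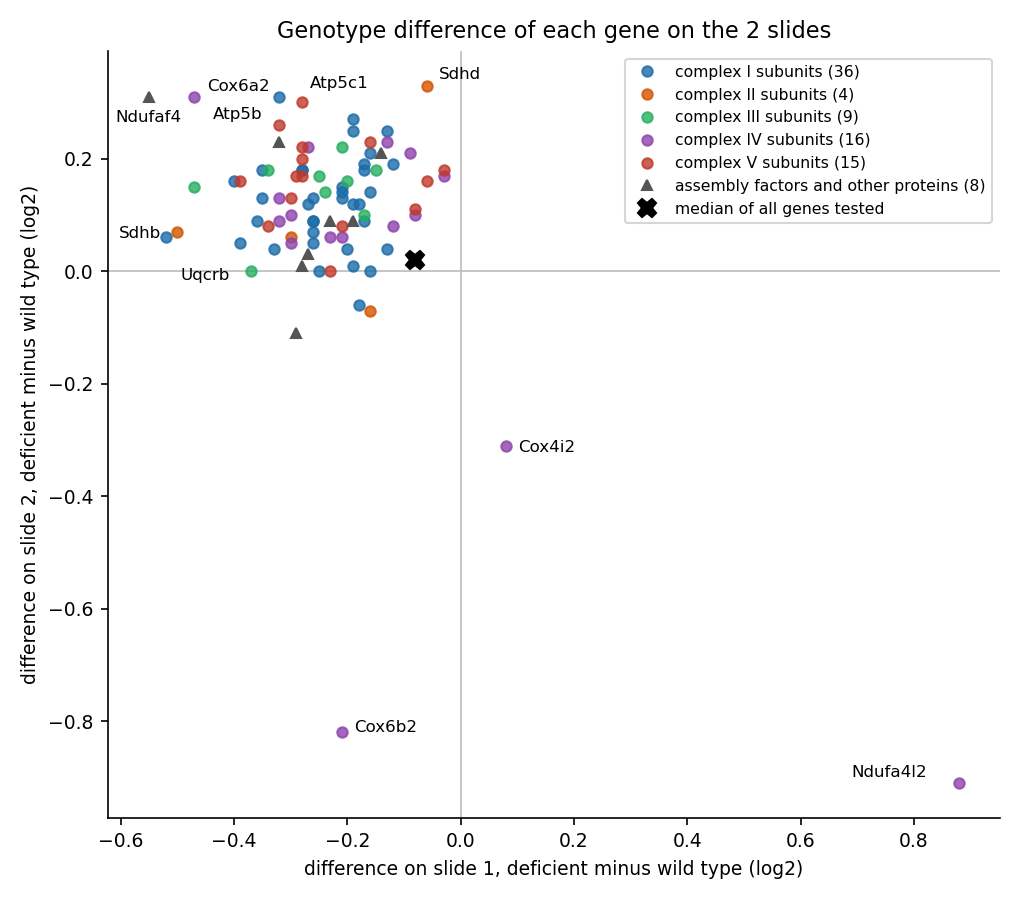
Genotype difference (deficient minus wild type, log2) of each of the 88 measured genes on slide 1 (horizontal axis) and slide 2 (vertical axis); circles are subunits coloured by complex, triangles assembly factors and other proteins, and the cross is the median of all genes tested. Most points lie in the upper left, lower on slide 1 and higher on slide 2. Cox6b2 (-0.21 and -0.82), Cox4i2 (0.08 and -0.31) and Ndufa4l2 lie furthest below. For Ndufa4l2 most arrays were not well above background, so its place is uncertain.

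The difference between the slides' genotype differences was tested in the same fit. Its median was 0.36 over the subunits and 0.09 over all genes, and 30 subunits were called higher and none lower (55 and 2 at an unadjusted p under 0.05), against 10.5% and 5.4% of all genes. The part of brightness in this count was not tested. Among the 4722 bright genes the median was 0.24, with 23.1% called higher and 2.2% lower. With the arrays centred on the bright genes, 4 subunits were called higher and 1 lower, and the median was 0.16. Quantile normalization left 6 and 0 (median 0.17), the values of the authors' table gave 3 and 1 (median 0.17), and no filter on dim probes 13 and 0. Array weights raised the number to 66 and 1. The median was above 0 under each of these, and the calls of Atp5b, Atp5c1 and the assembly factor Ndufaf4 held in all 10 alternatives and without each of the 16 arrays in turn.

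**Figure D2:**
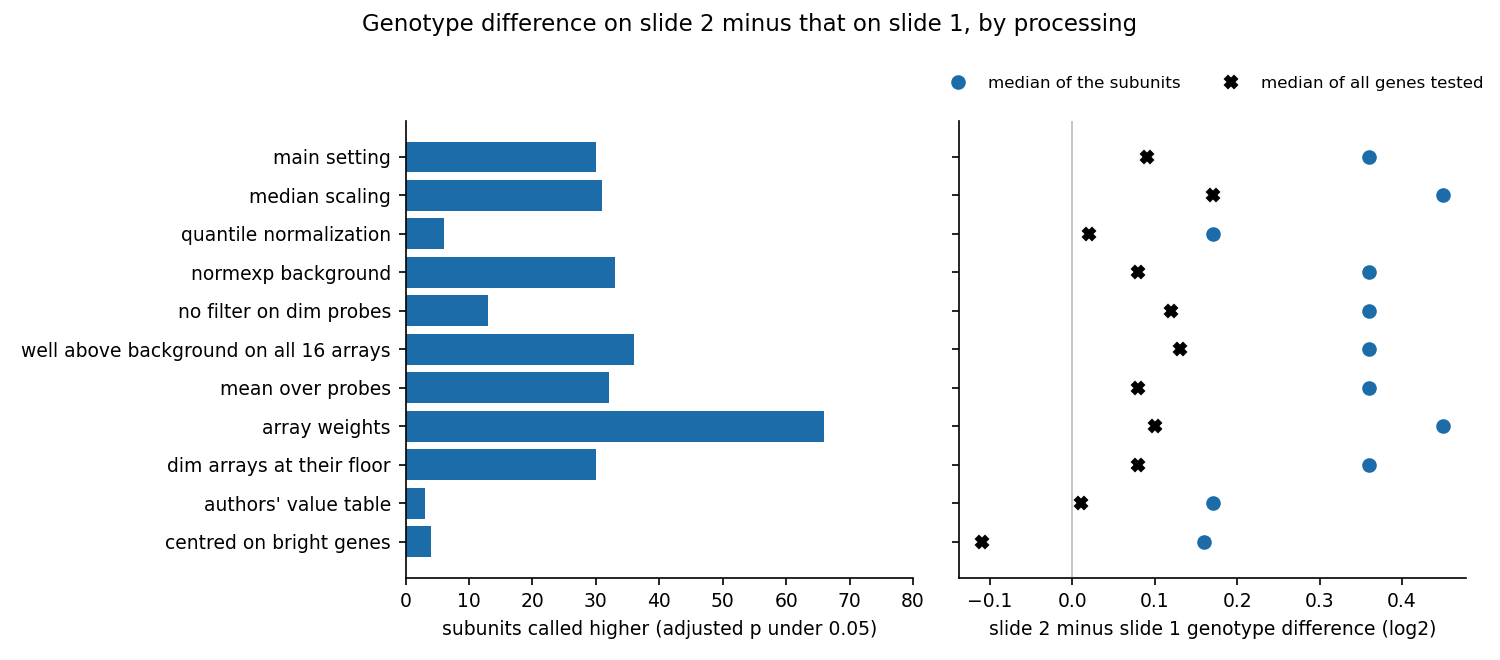
Left, the number of the 80 subunits called higher (adjusted p under 0.05) for the genotype difference on slide 2 minus that on slide 1, under the main setting and 10 alternatives; right, the median of the same difference (log2) over the subunits (circles) and over all genes tested (crosses). The count runs from 3 to 66, and the subunit median lies above that of all genes in each setting.

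The per-array medians of the subunits show which arrays carry these differences. On slide 1 they were 4.70, 4.71, 4.93 and 4.75 on deficient arrays 9, 11, 10 and 12 and 4.80, 4.92, 5.08 and 5.07 on wild type arrays 2, 5, 6 and 8. On slide 2 they were 5.97, 5.86, 5.88 and 5.80 on deficient arrays 1, 2, 3 and 4 and 5.70, 5.69, 5.66 and 5.85 on wild type arrays 1, 2, 3 and 5. Deficient array 10 of slide 1 stood above the other 3 deficient arrays and within the wild type range, and wild type array 5 of slide 2 stood within the deficient range. That last array also had the lowest 75th percentile signal of its slide, 596.2 against 889.7 to 990.5. Without each array in turn, between 17 and 41 subunits were called lower on slide 1 and between 0 and 4 higher on slide 2. The slide 1 count was 17 without deficient array 9 and 18 without wild type array 6 or 8. The slide 2 count was 0 without deficient array 1 or wild type array 2 and 1 without deficient array 2 or 3 or wild type array 1 or 3. Seen by place on the slide, the subunit medians at places 1 to 4 were 4.80 to 5.08 on slide 1 and 5.80 to 5.97 on slide 2, and at places 5 to 8 they were 4.70 to 4.93 and 5.66 to 5.85, lower on both slides with ranges that overlapped.

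**Figure D3:**
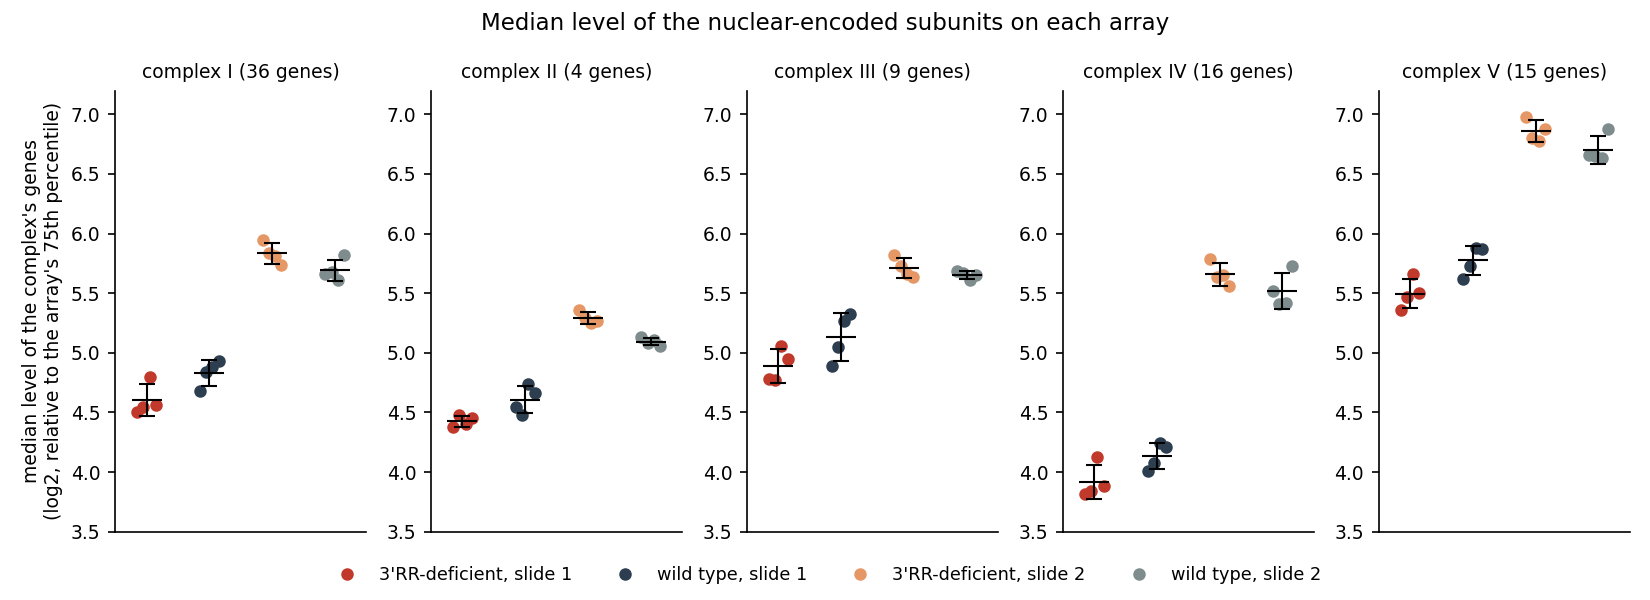
Median level of the measured subunits of each complex on each array (log2, relative to the 75th percentile of the array), 4 arrays per group; points are arrays and bars the mean ± SD. In each complex the deficient mean is below the wild type mean on slide 1 and above it on slide 2, and slide 2 is higher throughout; levels are not compared between complexes, whose probes differ.

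Complex I showed the pattern in all of its 36 subunits on slide 1, where each had a lower mean in deficient cells and 14 fell. The medians of the 36 were 4.6 ± 0.13 in deficient and 4.83 ± 0.11 in wild type cells on slide 1 and 5.84 ± 0.09 and 5.69 ± 0.09 on slide 2 (mean ± SD of 4 array medians). On slide 2, 34 had a higher mean in deficient cells and none passed the test. The difference between slides in the genotype difference passed for 14 of the 36 and was positive for all 36. The members called lower on slide 1 included Ndufv1, the flavoprotein that binds NADH (-0.35, adjusted p 0.00427), Ndufab1, the acyl carrier protein (-0.35, adjusted p 0.00236), and Ndufb8 (-0.52, adjusted p 0.0189). Called on slide 1 as well was Ndufa13, the subunit also known as GRIM-19 (-0.36, adjusted p 0.0089, all by limma). The calls of Ndufv1, Ndufb8 and Ndufa13 each held in 10 of 11 alternatives and were lost with slide 1 fitted alone. The genotypes overlapped for Ndufb8 (deficient array 12 at 5.44, wild type array 2 at 5.42). Its call held in 12 of 16 fits with 1 array left out. A second, dimmer Ndufab1 probe gave 0.14 on slide 1 and was not called, so that this gene rests on 1 of its probes.

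Ndufa12, an accessory subunit of complex I, had the largest difference between slides in the genotype difference among complex I subunits. Its levels were 4.48, 4.38, 4.79 and 4.47 in deficient and 4.68, 4.87, 4.89 and 4.97 in wild type cells on slide 1. On slide 2 they were 6.69, 6.47, 6.44 and 6.45 in deficient and 6.07, 6.17, 6.07 and 6.52 in wild type cells. The groups overlapped on both slides, through deficient array 10 and wild type array 5. Neither slide alone passed the test (-0.32, adjusted p 0.0605, and 0.31, adjusted p 0.136), and the difference of 0.63 ± 0.17 (SE) had an adjusted p of 0.0231, which was 0.073 under quantile normalization, 0.078 with centring on bright genes and 0.109 in the authors' value table.

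The assembly factors help build complex I and are not part of the finished enzyme. All 4 fell on slide 1, by 0.23 to 0.55 on the log2 scale, and Ndufaf4 rose on slide 2. The slide 1 calls of Ndufaf1, Ndufaf2 and Ndufaf3 held in 8, 4 and 9 of 11 alternatives. With each of the 16 arrays left out in turn, that of Ndufaf2 held in 5 of 16 fits. Ndufaf4 (probe at chr4:24829194-24829253 on the plus strand, mm9) measured 2.68, 2.68, 2.67 and 2.68 in deficient and 3.16, 3.18, 3.27 and 3.28 in wild type cells on slide 1. On slide 2 it measured 3.60, 3.38, 3.44 and 3.60 in deficient and 3.13, 3.21, 3.21 and 3.20 in wild type cells. The genotypes were apart on both slides, in opposite directions. The difference was -0.55 ± 0.06 on slide 1 (SE, adjusted p 9.45e-05, 0.685 of the wild type level) and 0.31 ± 0.06 on slide 2 (adjusted p 0.00752, 1.24-fold higher), and the difference between them was 0.86 ± 0.09 (adjusted p 0.000139). Its second probe gave -0.36, 0.21 and 0.57 for the same quantities. The slide 2 call did not hold in the authors' value table, with the arrays centred on bright genes or over arrays 1, 2 and 3 of each genotype alone, and the slide 1 call held in all 11 alternatives.

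Ndufaf3 was the assembly factor with 1 sign on both slides. Its levels were 1.51, 1.34, 1.61 and 1.45 in deficient against 1.70, 1.73, 1.85 and 1.78 in wild type cells on slide 1. On slide 2 they were 1.23, 1.26, 1.22 and 1.34 against 1.29, 1.46, 1.37 and 1.36. The groups were apart on slide 1 and overlapped on slide 2. Over both slides the difference was -0.20 ± 0.05 (adjusted p 0.0146), and with median scaling it was -0.15 (adjusted p 0.128). Ndufaf3 was also 1 of the few members with lower levels on slide 2 (-0.30, adjusted p 4.73e-05).

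Complex II, succinate dehydrogenase, feeds electrons from the tricarboxylic acid cycle into the chain and is wholly nuclear-encoded. By their brightest probes, its 4 subunits passed in different comparisons. Sdha and Sdhb, which form the catalytic part, fell on slide 1, and Sdhd, a membrane anchor, rose on slide 2. Sdhc, the other anchor, passed on neither by its brighter probe, while its dimmer probe fell on slide 1. Sdhb, the iron-sulfur subunit (probe at chr4:140535052-140535108, plus strand, mm9), measured 5.39, 5.20, 5.61 and 5.29 in deficient against 5.80, 5.80, 5.98 and 5.90 in wild type cells on slide 1. Its levels on slide 2 were 6.25, 6.14, 6.14 and 6.09 against 6.08, 6.00, 5.98 and 6.27. Deficient cells were below wild type cells on slide 1 without overlap, and the groups overlapped on slide 2 through wild type array 5. The slide 1 difference was -0.50 ± 0.09 (SE, adjusted p 0.00218, 0.708 of the wild type level) and held in all 11 alternatives and without each array, and its second probe gave -0.39. The slide 2 difference was 0.07 (adjusted p 0.73). Sdhb therefore passed over both slides (-0.21, adjusted p 0.0388) with means on opposite sides on the 2 slides, and that call was lost in 5 of 12 alternatives and on leaving out any 1 of 11 of the 16 arrays.

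Sdha, the flavoprotein subunit, measured 4.30, 4.43, 4.27 and 4.44 in deficient against 4.66, 4.53, 4.78 and 4.65 in wild type cells on slide 1. The groups did not overlap, and the difference was -0.30 ± 0.07 (adjusted p 0.00613), a call lost in 5 of 11 alternatives. On slide 2 Sdha lay between 4.74 and 4.91 on all 8 arrays. Sdhd gave the reverse picture, with 4.43 to 4.69 on all 8 arrays of slide 1. Slide 2 gave 5.87, 5.69, 5.62 and 5.64 in deficient and 5.43, 5.30, 5.38 and 5.38 in wild type cells. Those groups were apart, and the difference was 0.33 ± 0.08 (adjusted p 0.0193, 1.26-fold higher), which was lost under quantile normalization, in the authors' value table and with centring on bright genes, over arrays 1, 2 and 3 alone with or without the replicate block, and on leaving out deficient array 1 or wild type array 2. Sdhc was at -0.16 and -0.07, and its dimmer probe, which fell by 0.27 over both slides (adjusted p 0.0083 in a fit of all probes), went further than the brighter one.

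Complex III, the cytochrome bc1 complex, had a lower mean in deficient cells for 9 of 9 subunits on slide 1, with 4 calls, and a higher mean for 8 of 9 on slide 2, with none. The 4 were Uqcrb, Uqcrq, Uqcrc2, a core subunit, and Uqcrfs1, the Rieske iron-sulfur protein. Uqcrb, a small subunit that takes part in ubiquinone binding (probe at chr13:67001654-67001713, minus strand, mm9), measured 4.95, 5.03, 5.15 and 4.99 in deficient against 5.50, 5.40, 5.35 and 5.35 in wild type cells on slide 1. The slide 2 arrays gave 5.82, 5.73, 5.66 and 5.64 against 5.69, 5.68, 5.61 and 5.87. The genotypes were apart on slide 1 and mixed on slide 2. The slide 1 difference was -0.37 ± 0.08 (adjusted p 0.00364, 0.774 of the wild type level), held in all 11 alternatives and without each array, and was larger with the other probes, -0.74 and -0.64. On slide 2 the 3 probes gave 0.00, 0.00 and 0.05. Over both slides Uqcrb was at -0.18 (adjusted p 0.0288), and the call was lost in 4 of 12 alternatives, with adjusted p from 0.0642 to 0.139, and on leaving out any 1 of 4 arrays. The dimmer probes were at -0.37 and -0.29 over both slides (adjusted p 0.000704 and 0.00226 by limma in a fit of all probes). They were not checked singly under the alternatives.

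Uqcrc2 measured 4.73, 4.68, 4.87 and 4.79 in deficient against 4.81, 4.96, 5.08 and 5.07 in wild type cells on slide 1. On slide 2 it measured 5.95, 5.87, 5.90 and 5.88 against 5.70, 5.67, 5.68 and 5.65, with the genotypes apart. The difference was -0.21 on slide 1 (adjusted p 0.0364) and 0.22 on slide 2 (adjusted p 0.0597), and between them 0.44 ± 0.10 (adjusted p 0.0105). The last call was lost with quantile normalization (adjusted p 0.0824), with centring on bright genes (0.085) and in the value table (0.146), and the slide 1 call in 7 of 11 alternatives and on leaving out any 1 of 8 arrays. Uqcrq, which had the largest such difference of the complex at 0.61 ± 0.18 (adjusted p 0.0335), had overlapping genotypes on both slides, and its call was lost in 4 of 10 alternatives (adjusted p 0.0529 to 0.0942) and on leaving out any 1 of 11 arrays. Cyc1, the cytochrome c1 heme protein, was called in none of the comparisons, and lay at -0.15 on slide 1 and 0.18 on slide 2.

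Complex IV, cytochrome c oxidase, has isoforms that are known to be restricted to certain tissues, and 5 of the 8 on the array were measured. Without them, 11 of 11 subunits had a lower mean in deficient cells on slide 1, with 2 calls (Cox6c and Ndufa4), and a higher mean on slide 2, with none. The slide 1 calls are 18.2% of the 11, near the 15.8% of all genes and below the 26.8% of bright genes called lower there. The median difference was -0.21 on slide 1 and 0.10 on slide 2. Ndufa4, listed here with complex IV although its name is that of complex I, was at -0.30 on slide 1 (adjusted p 0.0291), a call lost in 4 of 11 alternatives and on leaving out any 1 of 4 arrays. Cox6b1, which lies at the dimer interface, measured 2.46, 2.34, 2.72 and 2.42 in deficient against 2.51, 2.81, 2.83 and 2.89 in wild type cells on slide 1. Its levels on slide 2 were 4.4, 4.24, 4.20 and 4.24 against 4.02, 4.10, 4.00 and 4.05. The groups overlapped on slide 1 and were apart on slide 2, neither slide passed, and the difference between them was 0.50 ± 0.14 (adjusted p 0.0258, and 0.0553 to 0.164 in the 4 of 10 alternatives in which the call was lost). Cox6c gave 0.41 for the same quantity (adjusted p 0.0443), a call lost in 4 of 10 alternatives and on leaving out any 1 of 12 arrays.

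Cox6b2, an isoform best known from testis, had its largest genotype difference on slide 2, with deficient cells lower. It measured -2.75, -2.42, -2.76 and -2.16 in deficient against -2.53, -2.41, -2.13 and -2.20 in wild type cells on slide 1. On slide 2 (probe at chr7:4703488-4703547, minus strand, mm9) it measured -0.12, -0.45, 0.00 and -0.36 against 0.55, 0.57, 0.47 and 0.77. The groups overlapped on slide 1, and on slide 2 every deficient array was below every wild type array. The slide 2 difference was -0.82 ± 0.15 (SE, adjusted p 0.0029, 0.566 of the wild type level), held in 11 alternatives and without each array but not with the replicate block on arrays 1, 2 and 3, and stands against a higher mean for 72 of the 80 subunits. Over both slides it was -0.51 ± 0.10 (adjusted p 0.00409), and 0.0599 with slide as a random block. The difference between slides in the genotype difference was -0.62 (adjusted p 0.0576). The other measured isoforms, Cox6a2 (heart and skeletal muscle), Cox7a1 (heart and skeletal muscle), Cox4i2 (lung) and Ndufa4l2 (hypoxia), passed in no genotype comparison. Ndufa4l2 was well above background on 2 of 4 deficient arrays and no wild type array of slide 1. On slide 2 that held for 2 of 4 wild type arrays and no deficient array. Slide 1 gave -4.38, -6.4, -3.25 and -5.01 in deficient against -5.37, -6.38, -5.29 and -5.51 in wild type cells, which overlapped. Slide 2 gave -5.5, -5.91, -6.07 and -5.09 against -4.75, -4.97, -5.06 and -4.14, which were apart. Most of these arrays were not well above background, so no fold difference is given.

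Complex V showed the largest medians of the 5 complexes by a small margin, -0.28 on slide 1 and 0.17 on slide 2, and the differences between complexes were not tested. On slide 1 15 of 15 subunits had a lower mean in deficient cells and 7 fell: Atp5a1, Atp5b, Atp5c1, Atp5f1, Atp5g3, Atp5h and Atp5l. Of these, Atp5a1, Atp5b and Atp5c1 encode the alpha, beta and gamma subunits of the catalytic F1 head, and Atp5f1 and Atp5h belong to the peripheral stalk. Atp5b (probe at chr10:127527255-127527314, plus strand, mm9) measured 6.63, 6.59, 6.79 and 6.72 in deficient against 6.86, 7.05, 7.06 and 7.02 in wild type cells on slide 1. Slide 2 gave 7.96, 7.91, 7.89 and 7.85 against 7.66, 7.60, 7.60 and 7.72. The genotypes were apart on both slides, in opposite directions. The difference was -0.32 ± 0.07 (adjusted p 0.00442, 0.802 of the wild type level) on slide 1, 0.26 ± 0.07 (adjusted p 0.0311, 1.19-fold higher) on slide 2 and 0.57 ± 0.10 (adjusted p 0.00263) between them.

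Atp5c1 measured 5.36, 5.43, 5.66 and 5.43 in deficient against 5.57, 5.73, 5.87 and 5.84 in wild type cells on slide 1. The slide 2 arrays gave 6.81, 6.73, 6.76 and 6.70 against 6.46, 6.50, 6.40 and 6.44. Deficient array 10 overlapped the wild type range on slide 1, and the groups were apart on slide 2. The differences were -0.28 ± 0.08 (adjusted p 0.0207) and 0.30 ± 0.08 (adjusted p 0.0345), and 0.58 ± 0.11 between them (adjusted p 0.00594). Its second probe was at -0.35 on slide 1 and, at 0.06, was not called on slide 2. The slide 2 calls of both Atp5b and Atp5c1 were lost under quantile normalization, with no filter on dim probes, in the authors' value table and with centring on bright genes, and on leaving out any 1 of 6 arrays of slide 2 for Atp5b and any 1 of the 8 for Atp5c1. The 3 genes for the c ring subunit, whose mature proteins are the same, were at -0.16 (Atp5g1), -0.06 (Atp5g2) and -0.28 (Atp5g3) on slide 1, and Atp5g3 was the one that passed (adjusted p 0.0153), a call lost in 3 of 11 alternatives.

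**Figure D4:**
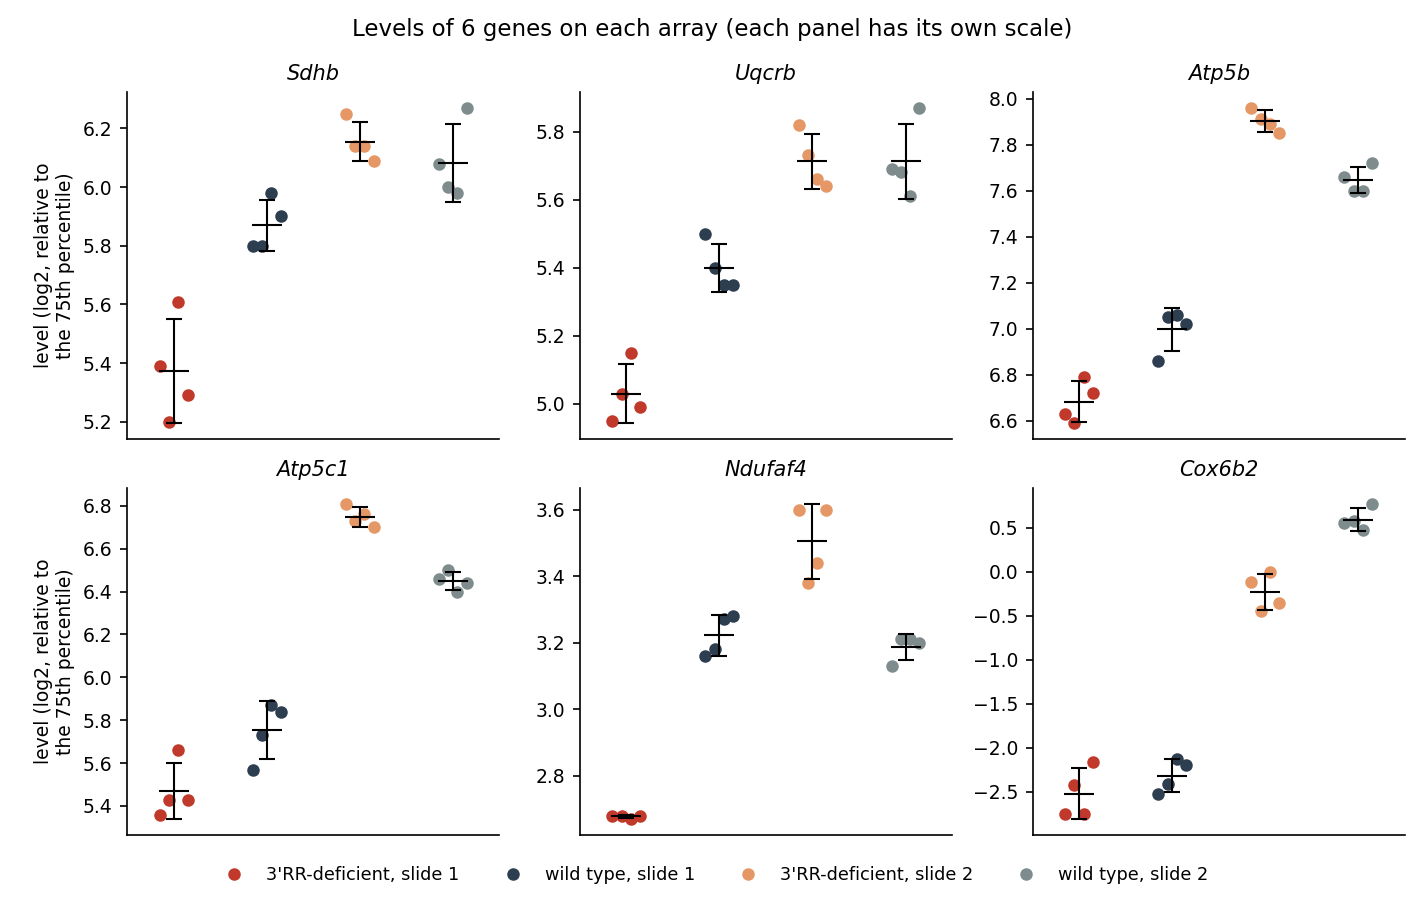
Levels (log2, relative to the 75th percentile of the array) of Sdhb, Uqcrb, Atp5b, Atp5c1, the assembly factor Ndufaf4 and the isoform Cox6b2 on each array, with mean ± SD of the 4 arrays of a group; each panel has its own scale. Sdhb and Uqcrb are apart by genotype on slide 1, Cox6b2 on slide 2, and Atp5b and Ndufaf4 on both slides in opposite directions.

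The difference between slides, over both genotypes, had a larger median than any of the genotype comparisons. The median subunit was 1.00 higher on slide 2, a 2-fold difference on the linear scale, and 76 of 80 rose and 1 fell, where 54.3% of all genes were called higher and 28.2% lower. The median of all genes was 0.38, and the median of the subunits above that of all genes was 0.62. That excess was also 0.62 with median scaling and with centring on bright genes, and 0.39 with quantile normalization, where the count was 62 higher and 6 lower. By complex the median was 0.96 in complex I (35 of 36 rose), 0.58 in complex II (4 of 4), 0.87 in complex III (8 of 9), 1.29 in complex IV (14 of 16) and 1.06 in complex V (15 of 15). Slide holds both genotypes equally and cannot be told apart from whatever else differed between the slides' samples.

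The subunits differed widely among themselves in this comparison. Ndufb6, an accessory subunit of complex I, measured 2.70 to 3.30 on the arrays of slide 1 and 4.92 to 5.28 on those of slide 2, a difference of 2.06 ± 0.07 (SE, adjusted p 2.25e-12, 4.17-fold). Cox7c, a small subunit of complex IV, lay at 2.07 ± 0.09 (4.21-fold). Cytochrome c itself, Cycs, which carries electrons from complex III to complex IV, was at 1.75. At the other end, Ndufs7, an iron-sulfur subunit of complex I, was at 0.03 (adjusted p 0.671) and Cyc1 at 0.11 (adjusted p 0.165), with values of 5.54 to 5.99 and 4.91 to 5.57 over all 16 arrays. The 2 catalytic subunits of complex II were low in this order too, Sdha at 0.34 and Sdhb at 0.50, against 0.67 for Sdhc and 1.01 for Sdhd. With median scaling, quantile normalization or centring on bright genes, the calls of Sdha and Sdhb were lost. In all, 68 of the 85 calls among the 88 members held in all 9 alternatives and without each array.

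Isoforms of 1 subunit could differ. Cox6a2 measured 2.52, 1.66, 1.15 and 1.89 in deficient and 2.40, 2.22, 2.31 and 2.17 in wild type cells on slide 1. On slide 2 it measured -0.73, -0.27, 0.33 and -1.71 in deficient and -1.14, -0.52, -1.16 and -0.80 in wild type cells. Every array of slide 1 was above every array of slide 2, and Cox6a2 fell by 2.79 on the log2 scale (adjusted p 1.04e-07), while Cox6a1, the common isoform and the brightest probe of complex IV, rose by 0.60 (adjusted p 2.63e-06). Cox6b2 rose by 2.60 and Cox6b1 by 1.53, Cox7a1 by 1.68 and Cox7a2 by 1.5, and Cox4i2 by 0.82 and Cox4i1 by 0.81. Cox8a rose by 0.36. In complex III Uqcr10 rose most (1.46), and Uqcrh, its brightest member, by 0.53; in complex V Atp5f1 (1.66) and Atp5j (1.54), both of the peripheral stalk, rose most. The ring genes Atp5g1, Atp5g2 and Atp5g3 rose by 1.06, 0.70 and 1.30. Among the names that are not subunits, Atp5sl, now known as Dmac2, fell by 1.51, from 4.59 to 5.11 on slide 1 to 3.35 to 3.46 on slide 2, and Cox4nb, a subunit of a membrane insertion complex, rose by 1.40. Cox7a2l, which takes part in joining complexes III and IV, fell on slide 1 (-0.27, adjusted p 0.0274). Probes of Atp5g1, Ndufa3, Ndufb11 and Ndufv3 were called in both directions in this comparison, and their values stand for the brightest probe alone.

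**Figure D5:**
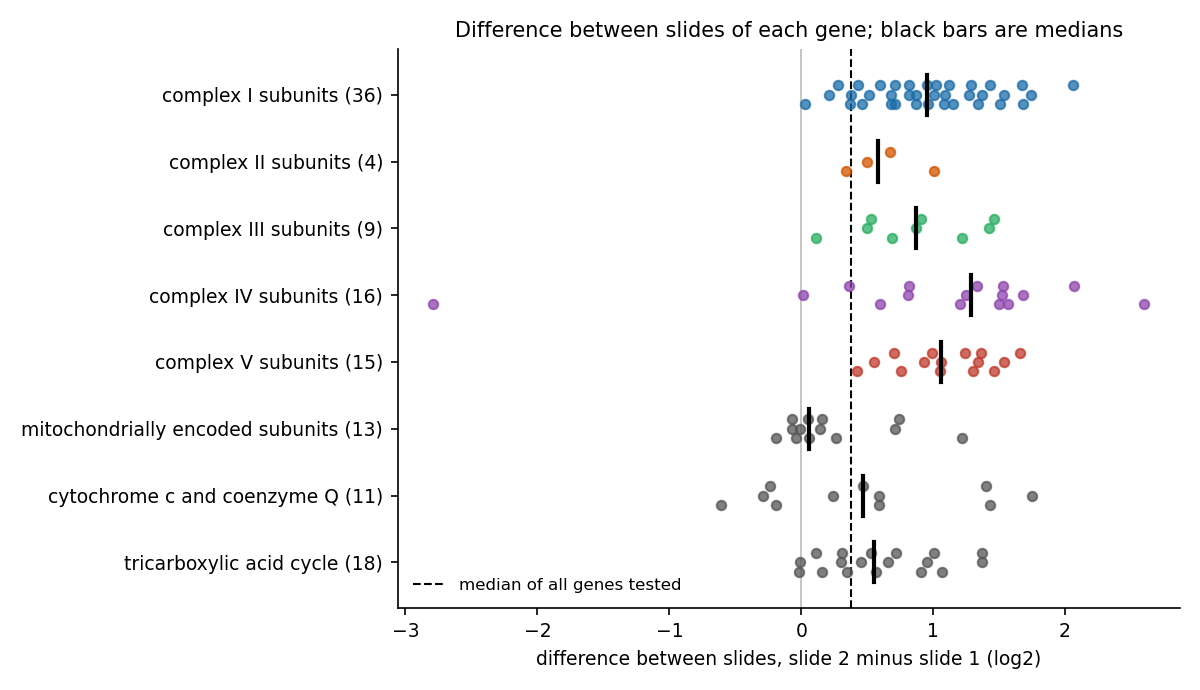
Difference between slides (slide 2 minus slide 1, log2) of each gene, by complex and for 3 related gene lists, with the number of genes in brackets; black bars are list medians and the dashed line is the median of all genes tested (0.38). The nuclear-encoded complexes have medians of 0.58 to 1.29, the mitochondrially encoded subunits 0.06.

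The subunits encoded in mitochondrial DNA, which the name rule did not include, had other values. Their median difference between slides was 0.06, with 6 of 13 called higher and none lower, and it lay 0.32 below the median of all genes (0.42 below with quantile normalization). ATP8 (0.74), ND3 (0.71) and ND6 (1.22) stood above the others. With median scaling 3 were called higher and 9 lower, so the direction of this list depends on the scaling, while its place below the nuclear-encoded subunits did not change in any setting tried. By genotype their median was -0.04 on slide 1 (0.07 under quantile normalization) and 0.19 on slide 2 (0.08 under quantile normalization, 0.06 in the authors' value table and 0.09 with centring on bright genes). ND5, a proton-pumping subunit of complex I, was higher in deficient cells on both slides by nearly the same amount, 0.41 (adjusted p 0.0017) and 0.39 (adjusted p 0.00471). ND6 was at -1.11 on slide 1 (adjusted p 0.00907) and ND3 at -0.53 (adjusted p 0.00655).

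Related nuclear gene lists set the scale for these values. On slide 1, 15.8% of all genes and 26.8% of bright genes were called lower. On slide 2, 4.33% and 6.37% were called higher. Among 76 mitochondrial ribosomal proteins, 24 fell on slide 1 (median -0.20), 7 rose on slide 2 (median 0.17), 28 were higher in the difference between the slides' genotype differences, and 72 rose and 2 fell between slides (median 1.06). Among 78 cytosolic ribosomal proteins, which make proteins outside mitochondria, 12 fell on slide 1 (15.4%, near the share of all genes, with a median of -0.20), none passed on slide 2 (2 at an unadjusted p under 0.05, median 0.03), and the median between slides was 0.20. Of 25 measured assembly factors outside the name rule, 7 fell on slide 1 (28%, near the share of bright genes) and 5 rose on slide 2 (20%). Cox11, which delivers copper to complex IV, did both (-0.42, adjusted p 0.00201, and 0.40, adjusted p 0.00536). Of 18 tricarboxylic acid cycle and pyruvate dehydrogenase genes, 5 fell on slide 1 (27.8%, also near the share of bright genes) and 4 rose and 1 fell on slide 2. Fh1, fumarate hydratase, was at -0.90 on slide 1 (adjusted p 3.11e-05) and Cs, citrate synthase, at 0.42 on slide 2 (adjusted p 0.00181). Of 11 genes of cytochrome c and coenzyme Q synthesis 4 fell on slide 1 (36.4%), Coq4 most (-0.69, adjusted p 0.00316).

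Of 17 regulators of mitochondrial biogenesis, 6 fell on slide 1 (35.3%) and 3 rose on slide 2 (17.6%). Yy1, whose letters were searched above, was at -0.39 on slide 1 (adjusted p 0.00164) and 0.08 on slide 2 (adjusted p 0.572). Gabpa, the DNA-binding subunit of GABP, was at -0.31 (adjusted p 0.0195) and 0.09 (adjusted p 0.62), and Nrf1 at -0.25 (adjusted p 0.0946) and -0.09 (adjusted p 0.675). Myc, a known activator of biosynthetic genes, was at -0.89 on slide 1 (adjusted p 0.00734) and 0.10 on slide 2 (adjusted p 0.837). Between slides Esrra fell by 1.05 and Tfb1m rose by 1.26, and the list was split, with 8 higher and 7 lower and a median of -0.04. Beside the slide 1 values, 3 of 7 dividing cell genes and 3 of 6 plasma cell genes were higher, and 1 plasma cell gene lower, in deficient cells of slide 1, where 1 of 11 macrophage and myeloid genes was also higher and 2 of 8 B cell genes and 1 of 9 T cell genes lower. Beside the slide 2 values, 4 of 8 erythroid genes, 3 of 9 T cell genes and 1 of 8 B cell genes were higher and 4 of 6 plasma cell genes lower in deficient cells. Of all genes, 9.19% were called higher and 15.8% lower on slide 1, and 4.33% higher and 4.27% lower on slide 2. The part of the cell type genes was not tested.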

How the data were processed

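RNA of 16 samples (0.2 µg each, RIN 9 per the labels) was hybridised to 1-colour mouse arrays. The authors deposited scanner files that, per the file headers, came from Feature Extraction 10.7.3.1, with background-subtracted intensity values (gProcessedSignal) and probe positions on mm9, and a value table on a log2 scale that matched each array (16 of 16 columns) but has medians of 5.77 to 5.79 on slide 1 and 6.61 to 6.62 on slide 2, so it was not compared between slides; its centring is not given in the sources used here. For samples of slide 2, limma is named per the submitters' processing notes. Here, log2 intensity minus the 75th percentile of the array was averaged over spots of a probe, control and outlier spots were left out, probes well above background on at least 4 arrays were kept, and the brightest probe stood for a gene. limma 3.58.1 (R 4.3.3) fitted the 4 groups over 22744 genes with Benjamini-Hochberg adjustment over all of them (threshold 0.05); the fit was tested on simulated data. SDs are over the 4 arrays of a group, SEs come from the fit's variance pooled over all 16 arrays, and the number of arrays limits the precision. Members and gene lists were chosen with earlier results of these data known. Genes were named by rule: per complex, the largest called differences over both slides (same sign on both), between slides in the genotype difference and between slides, the brightest member, all of complex II and the isoform families; others named were chosen after their values were seen. Alternatives were other scalings and background correction, filters, probe means, array weights, the value table, slide blocks, separate fits and leaving out each array.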

Additional observations from a re-analysis of the deposited data

Results flagged for a closer look

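In 7 of 168 groups of 4 arrays, 1 array lay far from the other 3, no larger a share than the about 1 in 20 that chance gives. Deficient array 10 of slide 1 was the highest of its group for Uqcrq (5.74, next 5.33) and Cox7a2 (4.25, next 3.92). Wild type array 5 of slide 2 was the highest for Atp5g1 (6.88, next 6.57) and for the median of complex V (6.88, next 6.66). Wild type array 1 of slide 2 was the lowest for Ndufaf4 (3.13, next 3.20). Deficient arrays of slide 2 gave the highest Ndufa12 on array 1 (6.69, next 6.47) and the lowest Uqcrq on array 4 (6.92, next 7.19).

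The genotype difference on slide 2 differed from that on slide 1, by the tested difference between them in limma, for 16 of the genes named by rule, 10 of them named for this difference. Among those 10 it was 0.86 for Ndufaf4, 0.63 for Ndufa12, 0.57 for Sdhb and 0.39 for Sdhd. In complex III it was 0.61 for Uqcrq and 0.44 for Uqcrc2, in complex IV 0.50 for Cox6b1 and 0.41 for Cox6c, and in complex V 0.58 for Atp5c1 and 0.57 for Atp5b. On each slide genotype and place on the slide cannot be told apart.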

How the results depend on the processing

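Counts are of the 80 subunits, and causes of the changes were not tested. Over both slides, where 3 were called lower, the number was 1 with median scaling, no filter on dim probes or slide as an additive block, 6 with quantile normalization, 8 with array weights, 5 in the authors' value table and 0 with slide as a random block. On slide 1, where 29 were called lower, it was 16 with median scaling, 46 with array weights, 16 in the value table, 13 with centring on bright genes (median -0.12) and 3 with slide 1 fitted alone; the complex II median was -0.14 with quantile normalization, -0.12 in the value table and -0.12 with centring on bright genes. On slide 2, where 3 were called higher and 1 lower, the number higher was 0 with quantile normalization, 1 with no filter, 5 with probes well above background on all 16 arrays, 34 (and 2 lower) with array weights, 0 in the value table (median 0.01; complexes I, II and V 0.00, -0.06 and 0.05), 0 with centring on bright genes and 5 with slide 2 fitted alone. The complex II median there was 0.15 with median scaling, -0.04 with quantile normalization and -0.03 with centring on bright genes.

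The difference between the slides' genotype differences gave 30 higher and 0 lower. With quantile normalization it was 6 higher (median 0.17; complexes I to V 0.17, 0.15, 0.19, 0.13 and 0.25), with the authors' values 3 higher and 1 lower (median 0.17; 0.16, 0.14, 0.17, 0.11 and 0.25) and with centring on bright genes 4 and 1 (median 0.16; 0.16, 0.18, 0.19, 0.09 and 0.22). No filter gave 13 higher, array weights 66 and 1, and normexp and the filter on all 16 arrays 1 lower each; with median scaling complex II was at 0.46. Between slides, 3 were lower with median scaling (median 0.66; complexes I to V 0.62, 0.25, 0.53, 0.95 and 0.72), 6 with quantile normalization (0.56; 0.55, 0.21, 0.42, 0.80 and 0.56), 5 with centring on bright genes (0.60; 0.56, 0.18, 0.47, 0.89 and 0.66) and 2 with no filter or the mean over probes (complex II 0.73).

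Leaving out each array in turn gave 1 to 4 lower over both slides, 17 to 41 lower and 0 to 1 higher on slide 1, 0 to 4 higher on slide 2, 17 to 43 higher and 0 to 1 lower for the difference between the genotype differences, and 75 to 76 higher between slides. The lowest count over both slides came without deficient array 9 of slide 1 or deficient array 3 or 4 of slide 2. For the difference between the genotype differences the count was 19 on leaving out slide 1 deficient array 9, slide 1 wild type array 8 or slide 2 deficient array 1, 18 without wild type array 1 of slide 2 and 17 without wild type array 3.

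Sample numbers 1, 2 and 3 occur in both genotypes of slide 2. With the replicate block over those 6 arrays 0 subunits were called higher, and without the block, a fit added after seeing the data, 14 higher and 2 lower. Same-numbered deviations correlated at 0.01, 0.12 and 0.07, so the numbers were not taken to pair the samples. The share of higher calls among all genes called was 43.4% over both slides (58.3% with median scaling), 36.8% on slide 1 (62.1% with centring on bright genes, 48% in the value table), 50.3% on slide 2 (65.6% with median scaling, 26.5% with centring on bright genes), 66% for the difference between them (49% quantile, 45.9% value table, 20.3% bright genes) and 65.8% between slides (51.5% median scaling, 48.5% bright genes). The median of all genes between slides was 0.38, and 0.04 with median scaling, 0.17 with quantile normalization and -0.02 with centring on bright genes. For each gene, only the calls for which the rule chose it were checked for sign and threshold here. These are the largest called differences of each complex, for which a change of sign is least likely. In 244 such checks, apart from leaving out arrays, no sign reversed and 30 fell short of the threshold. Outside these checks, Ndufa3, Ndufs1, Ndufv1 and Cox7a2l were called between slides in the opposite direction in some alternatives. Ndufa3 kept its call in 4 of 9 alternatives and the rest in 6 of 9. Dim isoforms near background limit what is measured for Ndufa4l2, and Cox7b2, Cox8b and Cox8c were not measured.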
